A study of Rattus norvegicus with 164 samples.

Results

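This account covers 9 autosomal genes of rat prelimbic cortex, each read as a single row of a gene table: Rbp7, Qrfpr, Fam111a, Hpse2, Tmco5a, Ccdc77, Clxn, Gtpbp4 and Zfp36. They were selected on their own measured levels, because those levels fell into separate clumps over the libraries, so the clumps are a description and no test is made of them. The 9 genes are 9 of 38354 in the table, and all 9 had a mean level of at least 1 on the log2 scale used below, as did 15150 genes in all. Being listed as single genes, they may also have been chosen for a lack of neighbours that move with them, and the neighbour counts below are read as description for that reason.

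The libraries were poly(A) RNA from outbred rats of the heterogeneous stock, whose chromosomes are mosaics of those of several inbred founder strains. The labels name 164 samples, of which 130 had a column in the table. Titles made of digits alone are called the decimal series here (68 libraries), and titles starting with E21DCD the E21DCD series (51 libraries). A further 11 E21DCD libraries are described as having had an original label starting with unknown, before a genotype mismatch fix. They are called reassigned here. Every sample is labelled prelimbic cortex and outbred, and the labels give no sex, age, treatment or preparation date, so the title series is the only division they offer. Rats are the replicates.

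Levels are log2(CPM + 1), where CPM is the estimated count scaled to a column sum of 1000000. Column sums before scaling ran from 15122563 to 55950487 estimated counts. Marker genes went against the tissue label in 11 libraries, all in the decimal series: the summed level of 8 striatal projection neuron markers was 4277 to 6428 CPM in them, against 242 to 684 CPM in the other 113, and that of 6 cortical glutamatergic markers was 10.9 to 549 CPM, against 1816 to 2918 CPM. Another 6 libraries, 1 decimal and 5 E21DCD, stood apart on the first principal component of the libraries other than those 11. That component used the genes with a mean level of at least 1. Values that rest on these 17 libraries are given with and without them.

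In an outbred rat a regulatory difference between 2 alleles can give a gene a low, a middle and a high level. These are the levels of rats with 0, 1 or 2 copies of the stronger allele. For a given share of that allele, random mating then sets how many rats fall in each. Every share below was taken from the observed clump counts, so the expected counts are not independent of them. With 2 clumps the expected counts add up to the observed ones by construction. Neighbouring genes can also vary together across such rats, because long blocks of chromosome, with all their differences, are inherited together. Genotypes were not analysed here, so whether any level followed a genotype was not tested. The counts were estimated by matching reads to reference transcripts, and whether founder differences within a transcript altered that matching was not tested either.

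Separated levels were uncommon once the libraries that stood apart were left out. Over all 130 libraries 11.1% of 14632 autosomal genes passed a limit for 2 clumps, and without the 17 libraries 0.806% did. The clumps had to be at least 4 SD and 1 log2 unit apart, with at least 5% of libraries in the smaller one. The BIC, a score that is lower for a better fit, also had to be at least 10 below that of 1 clump. Of the 9 genes, 7 passed that limit over all libraries. Zfp36, at 4.30 SD, and Clxn, at 4.42 SD, lay just inside it, while Rbp7 lay just outside at 3.86 SD. Gtpbp4 lay outside at 3.39 SD and also missed the BIC limit, with a fall of 7.02. Without the 17 libraries Gtpbp4 passed at 5.74 SD and Rbp7, whose levels number 3, remained outside at 3.80 SD.

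**Figure D1:**
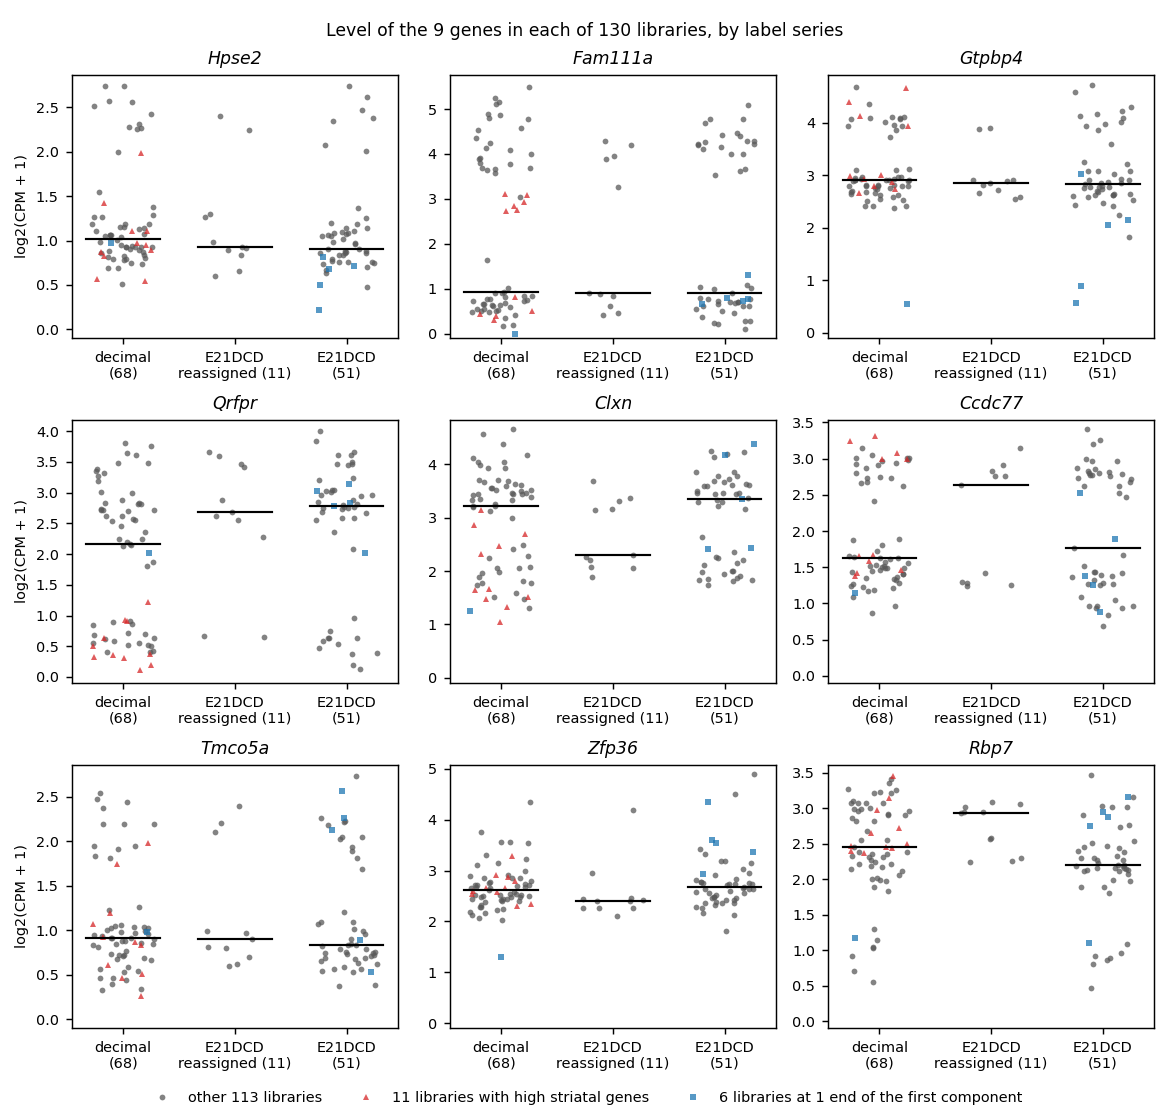
Level of each of the 9 genes in every library, as log2(CPM + 1), for the decimal series (68 libraries), the reassigned E21DCD libraries (11) and the E21DCD series (51). Each point is 1 rat, the black line is the group median, triangles are the 11 libraries with high striatal genes and squares the 6 at 1 end of the first component; all 11 triangles sit in the lowest clump of Qrfpr.

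Rbp7 encodes a cellular retinol-binding protein, a small carrier that holds vitamin A alcohol inside cells. Its gene spans chr5:165169700-165177427 of GRCr8, and its levels formed 3 clumps. The low clump held 16 libraries (12.3%) between 0.47 and 1.30 with a median of 0.94, the middle clump 68 libraries (52.3%) between 1.80 and 2.66 with a median of 2.25, and the high clump 46 libraries (35.4%) between 2.67 and 3.47 with a median of 3.01. A stretch with no library, 0.50 wide without the 17 libraries, set the low clump apart, whereas the middle and high clumps nearly touched. On the linear scale the medians were 0.922, 3.75 and 7.05 CPM, and the middle one lay near the midpoint of the outer ones, 3.99 CPM. For 2 alleles these same counts give a high-allele share of 61.5%. Random mating with that share would give 19.2, 61.5 and 49.2 libraries, beside the 16, 68 and 46 observed.

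Qrfpr encodes the receptor of QRFP, an RFamide neuropeptide known for its role in feeding and arousal. The gene spans chr2:120981235-121025020, and its libraries also made 3 clumps. The low clump held 43 libraries between 0.11 and 1.22 with a median of 0.58, the middle one 60 between 1.81 and 3.04 with a median of 2.72, and the high one 27 between 3.14 and 4.00 with a median of 3.48. All 11 libraries with high striatal genes were in the low clump, at 0.11 to 1.22. Counted without the 17 libraries, the clumps held 32, 55 and 26 libraries, beside 31.3, 56.3 and 25.3 for 2 alleles with a high-allele share of 47.3%. Over all 130 the observed 43, 60 and 27 stood beside 41.0, 64.02 and 25.0. The median CPM was 0.495, 5.57 and 10.1, with 5.31 at the midpoint of the outer clumps. Fitted anew without the 17 libraries, the middle clump was itself divided, into 12 libraries between 1.81 and 2.37 and 43 between 2.46 and 3.04.

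Fam111a encodes a protease that acts at replication forks beside the clamp PCNA in human cells and restricts some viruses. It spans chr1:219065542-219081213 and had the widest spread of the 9, from 0.00 to 5.49. Over all libraries the fit gave 4 clumps of 74, 8, 35 and 13 libraries, with medians of 0.66, 2.99, 4.10 and 4.87. In the second clump 6 of the 8 were libraries with high striatal genes, and none of those libraries was higher. Without the 17 libraries 3 clumps remained: 63 libraries at 0.10 to 1.64, 36 at 3.03 to 4.46 and 14 at 4.52 to 5.49. An empty stretch of 1.39 log2 units lay above the low clump. The median CPM was 0.582, 15.0 and 27.5, the midpoint of the outer clumps 14.1, and the counts of 63, 36 and 14 stood beside 58.1, 45.9 and 9.06 under random mating, so the middle clump held fewer libraries than those proportions give.

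**Figure D2:**
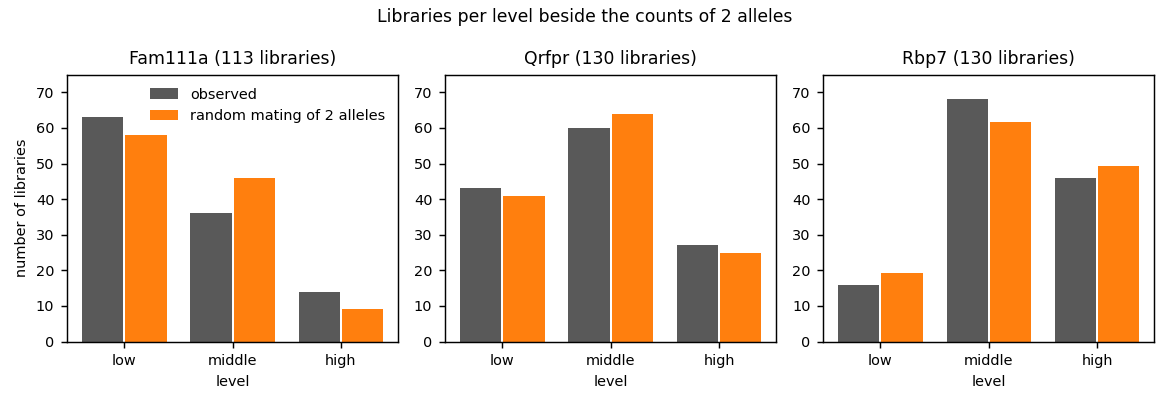
Number of libraries in the low, middle and high clump of Fam111a (113 libraries), Qrfpr and Rbp7 (130 libraries each), observed counts left and the counts of 2 alleles under random mating right. The allele shares were taken from the observed counts themselves. The bars lie close for Qrfpr (43, 60 and 27 beside 41.0, 64.02 and 25.0), and the middle bar of Fam111a is lower than its counterpart, 36 beside 45.9. Only the Fam111a panel leaves out the 17 libraries that stood apart. The low bar of Qrfpr includes all 11 libraries with high striatal genes. Without the 17 its counts were 32, 55 and 26 beside 31.3, 56.3 and 25.3, and a new fit there gave 4 clumps.

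A further 5 genes had 2 clumps, and for these the counts alone cannot say which clump would hold the rats with both allele copies alike. Hpse2 encodes heparanase-2, a relative of heparanase that binds heparan sulfate but does not cut it. Its gene spans chr1:251532149-252231316, and 109 libraries lay between 0.21 and 1.55 with a median of 0.92, while 21 (16.2%) lay between 1.99 and 2.74 with a median of 2.38. The empty stretch between them was 0.44 wide without the 17 libraries. Read as rats with at least 1 high allele, the 21 would be 20.1 with 1 copy and 0.924 with 2 copies; read as rats with 2 copies, they would leave 62.5 carriers of 1 copy inside the low clump.

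Tmco5a encodes a coiled-coil membrane protein known mainly from the testis. It spans chr3:124187005-124200308 and showed the same shape, with 98 libraries between 0.26 and 1.27 and 32 (24.6%) between 1.69 and 2.74. The medians were 0.80 and 2.15. The high clump read as at least 1 copy gives 29.7 libraries with 1 copy and 2.26 with 2 copies. Both Hpse2 and Tmco5a were low genes, at median estimated counts of 24.0 and 20.0 per library in the low clump, against 118 and 86.0 in the high clump, so no clump rested on libraries at 0.

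Ccdc77 encodes a coiled-coil protein and lies on chr4:155206402-155238235. Its low clump held 76 libraries between 0.68 and 1.90 (median 1.38) and its high clump 54 (41.5%) between 2.42 and 3.40 (median 2.83), or 1.60 and 6.11 CPM. Kdm5a, a demethylase of histone H3, is annotated head to head with it at chr4:155238124-155316121, so that 112 bases are shared by both spans. The reference sequence at that shared start is printed from RefSeq (GRCr8, plus strand, chr4:155237874-155238173), with the bases that lie in both annotated genes in capitals.
Kdm5a start: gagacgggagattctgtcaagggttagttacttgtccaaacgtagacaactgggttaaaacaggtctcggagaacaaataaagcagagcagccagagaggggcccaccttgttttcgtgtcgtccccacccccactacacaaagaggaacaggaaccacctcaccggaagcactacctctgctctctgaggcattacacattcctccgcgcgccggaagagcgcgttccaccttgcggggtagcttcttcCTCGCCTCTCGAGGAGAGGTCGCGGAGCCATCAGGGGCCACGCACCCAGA
Reads in the shared stretch could be assigned to either gene, and the values of both are to that extent uncertain.

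Clxn encodes calaxin, a calcium-binding protein of the outer dynein arms that drive motile cilia, known from mouse and zebrafish. It spans chr11:99410925-99500713. Its low clump held 54 libraries between 1.05 and 2.69 (median 1.98, 2.94 CPM) and its high clump 76 (58.5%) between 2.87 and 4.66 (median 3.54, 10.6 CPM). Of the 11 libraries with high striatal genes 9 were low. With the low clump read as rats with no high allele, the 76 would be 59.6 with 1 copy and 16.4 with 2. Read as rats with 2 copies, the 76 would leave 46.8 with 1 copy and 7.20 with none in the low clump. Without the 17 libraries the clumps held 42 and 71 libraries. The first reading then gives 53.8 with 1 copy and 17.2 with 2, and the second 37.1 with 1 copy and 4.86 with none.

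Gtpbp4 encodes a nucleolar GTPase needed to assemble the large ribosomal subunit and spans chr17:65997472-66019530. Over all 130 libraries the stepwise fit gave it 1 broad clump from 0.55 to 4.71. Without the 17 libraries it had 2, with 85 libraries between 1.82 and 3.25 (median 2.79, 5.89 CPM) and 28 (24.8%) between 3.60 and 4.71 (median 4.07, 15.8 CPM). The 3 lowest of all, at 0.55, 0.56 and 0.88, were among the 6 libraries set apart on the first component.

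Zfp36 encodes tristetraprolin, which binds AU-rich stretches of messenger RNA and speeds their decay, and is itself an immediate early gene, switched on within minutes of a stimulus. It spans chr1:92796628-92799108. Here 124 libraries lay between 1.31 and 3.60 with a median of 2.59, and 6 (4.62%) lay between 3.75 and 4.90 with a median of 4.34. The 6 were 2 decimal, 3 E21DCD and 1 reassigned library, and 1 of them was among those set apart on the first component. The clumps nearly touched, at 3.60 and 3.75, and the widest empty stretch without the 17 libraries, 0.44, lay inside the high clump. Read as carriers the 6 would be 5.93 with 1 copy and 0.0709 with 2, and read as rats with 2 copies they would leave 43.9 carriers of 1 copy inside the low clump. Without the stepwise rule there were 3 clumps of 109, 16 and 5 libraries, beside 105, 23.4 and 1.3 under random mating.

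Between the title series the levels of 8 of the 9 genes did not pass the test. In the limma fit over the 3 groups, 29.1% of 15150 genes were called between the decimal and E21DCD series, and 9.9% without the 11 libraries with high striatal genes; without all 17 libraries 4488 genes were called, against 4412 in the full set. Qrfpr alone among the 9 was called, with a mean of 1.85 ± 1.18 in the decimal series against 2.41 ± 1.13 in the E21DCD series (SD, n = 68 and 51), a difference of -0.56 ± 0.21 (SE, limma, Benjamini-Hochberg adjusted p = 0.0348). The ranges overlapped almost fully, 0.11 to 3.81 in the decimal and 0.13 to 4.00 in the E21DCD series. Without the 11 libraries the difference was -0.30 with adjusted p = 0.396. The other 8 differences ran from -0.16 for Clxn to 0.26 for Rbp7, and that of Rbp7, 2.44 ± 0.68 against 2.18 ± 0.68, had adjusted p = 0.0964. Between the 11 reassigned and the 51 E21DCD libraries limma called 0 of 15150 genes, with 396 at an unadjusted p under 0.05. Rbp7 averaged 2.72 ± 0.34 in the reassigned libraries, none of which was in its low clump, against 2.18 ± 0.68 in the E21DCD series. It was not called (limma, unadjusted p = 0.0142, adjusted p = 0.9999).

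To find what moved with each gene, its level was set as a continuous term in a limma fit over all other genes, with the first 10 principal components, and the slope is given as log2 units of the other gene per log2 unit of the member. Of 346 genes within 1 Mb of the 9 members, 165 had a mean level of at least 1, and 16 of those (9.70%) were called. Of these, 7 rose and 9 fell with the member. Distances run from the deposited position, which is 1 end of the gene. From the nearer end of each member the count was 18 of 182. At any distance 88 calls were made, the 16 included, with 15149 genes tested per member. The share of all genes called ran from 0.0066% for Tmco5a to 0.238% for Zfp36. No member was called with any other in the 72 pairings, of which 4 had an unadjusted p under 0.05. No slope was called different between series: 0 of 15149 for each member in the interaction fit (limma), with 541 to 1046 at an unadjusted p under 0.05.

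**Figure D3:**
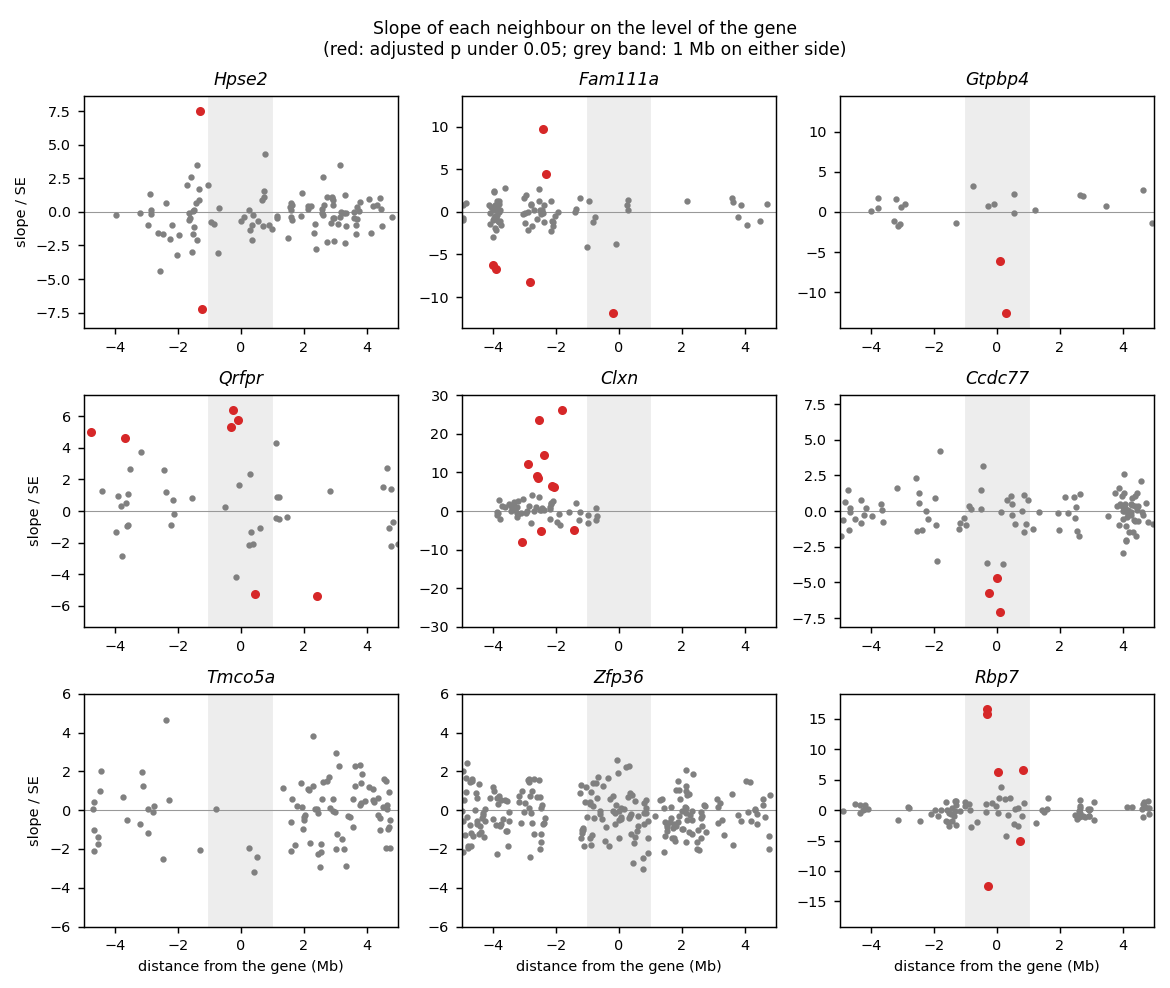
Slope divided by its standard error for every tested gene within 5 Mb of each member, by distance from the member's deposited position in Mb; red points have an adjusted p under 0.05 and the grey band is 1 Mb on either side. Rbp7 has 6 called genes in the band and Qrfpr 4, while the strongest points of Clxn lie outside it, 1.82 and 2.55 Mb away.

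Rbp7 had the most called neighbours, 6 of 27 tested within 1 Mb, beside 0.0462% of all genes; 4 rose and 2 fell. Cort, which encodes the interneuron neuropeptide cortistatin and starts 332 kb below it, rose by 0.59 ± 0.035 per unit of Rbp7 (SE, adjusted p = 4.03e-29). Its levels ran from 0.49 to 5.14 with a median of 3.29. The 11 libraries with high striatal genes were its 11 lowest, and without them the slope was 0.60. Cenps, a centromere protein next to Cort, rose by 0.24 ± 0.015 (adjusted p = 1.27e-27). Pgd, an enzyme of the pentose phosphate pathway 295 kb away, fell by 0.15 ± 0.012 per unit (adjusted p = 7.43e-20) although its levels spanned only 5.06 to 5.78. Nmnat1, an enzyme of nuclear NAD synthesis 33.8 kb above Rbp7, had a slope of 0.17 ± 0.026, and the glycolytic enzyme Eno1, 825 kb above, one of 0.21 ± 0.032, with adjusted p of 1.37e-05 and 5.98e-06. The remaining one, LOC134479047, had a slope of -0.25 ± 0.050. Ube4b, the nearest tested gene below at 23.9 kb, had a slope of 0.0057 and was not called. Cort, Cenps and Pgd were called in the decimal libraries alone and in the E21DCD libraries alone, reassigned ones included; Eno1 and Nmnat1 were called in the decimal libraries only, and their difference between series was not called (interaction adjusted p = 0.908 and 0.987). With the clump as a further term none of the 6 was called. Of 17 tested retinoid proteins, 7 endothelial markers and 3 fatty acid binding proteins 0 were called (limma; of all genes 762 had an unadjusted p under 0.05). Slit3, an axon guidance protein of chromosome 10, had a slope of 0.064 ± 0.014 (adjusted p = 0.0468) and was not called without the 17 libraries.

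Qrfpr had 4 called neighbours of 12 tested, beside 0.0594% of all genes. Of these 3 rose: Mccc1, a subunit of methylcrotonyl-CoA carboxylase, by 0.068 ± 0.011 (adjusted p = 4.23e-05), the zinc finger gene Zfp267 by 0.086 ± 0.015, and Dcun1d1, which promotes neddylation, by 0.037 ± 0.0070. None of these 3 was called in the decimal or the E21DCD libraries alone (Mccc1 adjusted p = 0.0759 and 0.381), and Mccc1 and Zfp267 turned direction within clumps, at -0.0077 and -0.073. Arsl, the nearest tested gene at 58.03 kb, was not called (slope 0.019, adjusted p = 0.922). On another chromosome the long noncoding RNA LOC134486511 (chromosome 3) had a slope of 0.17 ± 0.029 (adjusted p = 1.72e-04). The gene most like Qrfpr by Pearson's r was Egfem1, 4.77 Mb below it (r = 0.50, n = 130). Of 8 tested RFamide peptides and receptors 0 were called, with a median slope of 0.0051 against 0.00025 for all genes.

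Fam111a had 1 called neighbour of 8 tested, beside 0.0924% of all genes, and it moved the other way. Mpeg1 encodes perforin-2, a pore-forming protein of macrophages and microglia, and starts 189 kb below Fam111a. Its level fell by 0.38 ± 0.032 per unit of Fam111a (adjusted p = 5.11e-18), over a range of 1.76 to 6.42, and Pearson's r over the 130 libraries was -0.66. None of the 4 microglial markers was called with Fam111a, and their slopes ran from -0.00031 to 0.015. Dtx4 and Cntf, the nearest tested genes below and above, had slopes of -0.016 and 0.0084 and were not called. Farther off, 12 more genes of chromosome 1 were called, all within 10 Mb. Cyb561a3, a lysosomal cytochrome 2.42 Mb below, rose by 0.12 ± 0.013 (r = 0.66), and Fads1, a fatty acid desaturase, had a slope of -0.051 ± 0.0062. Fads1 was named after its value was seen. One gene on another chromosome, Cfl1l1 of chromosome 8, had a slope of 0.10 ± 0.018 (adjusted p = 1.31e-04). Of 14 tested replication fork genes 0 were called, with slopes from -0.0073 to 0.012.

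Clxn had 0 called neighbours of 5 tested within 1 Mb, all of them on its lower side, and its steepest slopes lay farther out on the same chromosome. Spag6l encodes a protein of the central apparatus of motile cilia and starts 1.82 Mb below Clxn. It rose by 1.06 ± 0.040 per unit of Clxn (adjusted p = 4.93e-48), over a range of 0.43 to 5.17 with a median of 2.29. Lrrc74b, a leucine-rich repeat gene 2.55 Mb below, rose by 0.69 ± 0.029 (adjusted p = 1.11e-43) over 0.33 to 2.89. Their Pearson's r with Clxn over the 130 libraries was 0.78 and 0.88. In all, 11 genes of chromosome 11 and 2 elsewhere were called, 0.0858% of those tested. Named after their values were seen, Pi4ka, a phosphatidylinositol kinase, had a slope of 0.10 ± 0.0070 and Dgcr2 one of 0.072 ± 0.0059, whereas Prodh, proline dehydrogenase, had one of -0.10 ± 0.013. With the clump of each library as a further term, which leaves the slope within clumps, Spag6l kept a slope of 1.09 and Lrrc74b one of 0.65, and both were still called. On chromosome 7, Csrp2 had a slope of -0.076 ± 0.017 (adjusted p = 0.0240) and Gramd4 one of 0.045 ± 0.010 (adjusted p = 0.0459); Gramd4 was not called without the 11 libraries, and neither was called without the 17 (adjusted p = 0.278 for Csrp2). Of the 11 libraries with high striatal genes 5 had more Spag6l than any other library, as the scatter of these pairs shows.

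**Figure D4:**
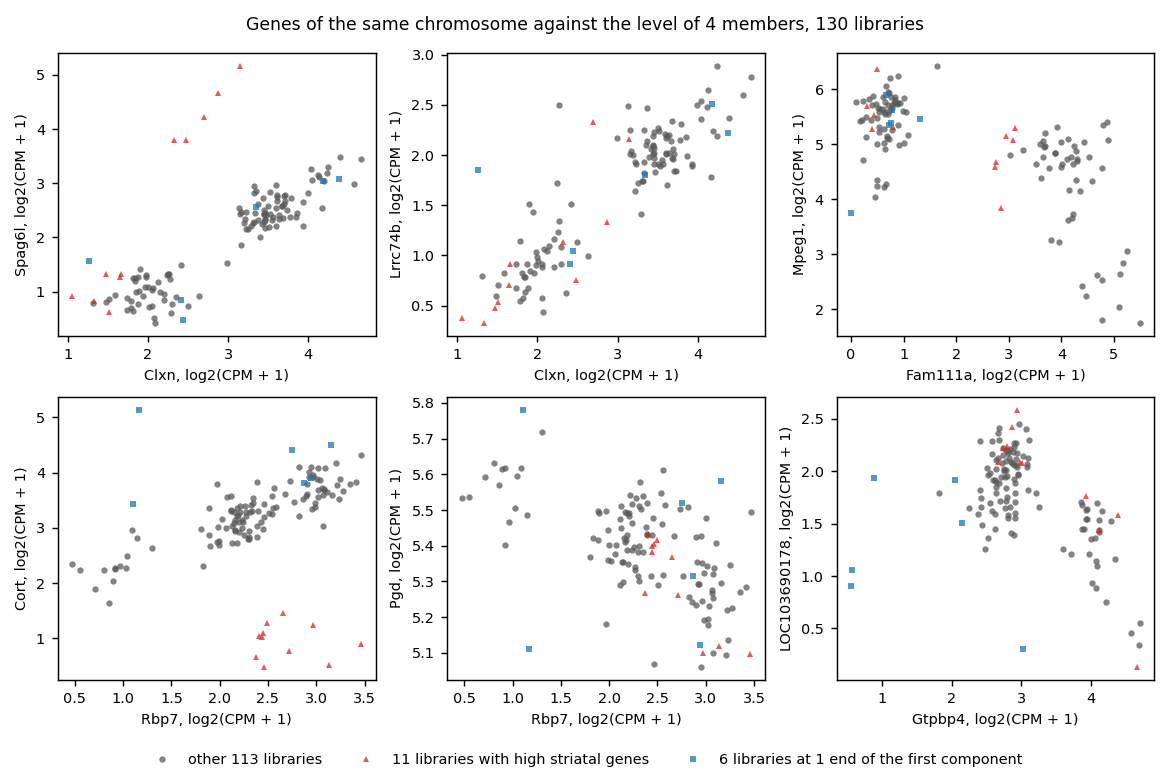
Levels of 6 genes of the same chromosome against the level of the member, log2(CPM + 1) on both axes, 1 point per library; grey circles are the 113 other libraries, triangles the 11 with high striatal genes and squares the 6 set apart on the first component. Spag6l and Lrrc74b climb with Clxn, Mpeg1 and LOC103690178 are lower where Fam111a and Gtpbp4 are high, and the triangles lie at the bottom of the Cort panel.

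Calls were not found among other cilia genes. Of 26 genes of the outer dynein arm and motile cilia, 15 were tested and 0 were called, with a median slope of 0.014 against -0.00083 for all genes; the lowest adjusted p was 0.448, for Foxj1, the transcription factor of motile ciliated cells, at a slope of 0.093 ± 0.032. Of 5 ependymal genes, 3 were tested and 0 were called. The start of Spag6l is printed from RefSeq (GRCr8, plus strand, chr11:97677590-97677889) because its level followed Clxn most steeply. Capitals mark, in order, a cAMP response element (TGACGTCA), a core of the X-box bound by ciliary RFX factors (GTTGCC) and a GC box (GGGCGG).
Spag6l start: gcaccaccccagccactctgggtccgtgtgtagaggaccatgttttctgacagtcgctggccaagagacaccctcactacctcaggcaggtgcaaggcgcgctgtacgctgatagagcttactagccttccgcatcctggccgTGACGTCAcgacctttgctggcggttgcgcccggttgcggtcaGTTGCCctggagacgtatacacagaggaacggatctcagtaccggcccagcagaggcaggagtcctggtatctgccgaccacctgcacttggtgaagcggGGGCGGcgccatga
Searched on both strands, these letters occur in 1.83%, 12.2% and 33.1% of the 33469 RefSeq windows of the same length, and a match is a description only.

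Gtpbp4 had 2 called neighbours of 7 tested, beside 0.0132% of all genes, and both fell. LOC103690178, an annotated transcript of unassigned kind 274 kb above, fell by 0.55 ± 0.044 per unit (adjusted p = 1.01e-19) over a range of 0.13 to 2.59. LOC134482729, a predicted protein-coding gene 106 kb above, fell by 0.17 ± 0.027 (adjusted p = 8.05e-05). Larp4b, the nearest tested gene below at 88.6 kb, had a slope of 0.0082 and was not called. Without principal components the fit over all 130 libraries called 8357 genes with Gtpbp4. It called 4301 with Qrfpr, 2453 with Clxn, 857 with Zfp36 and 469 with Rbp7. For the remaining members it called 5 (Fam111a), 2 (Tmco5a), 1 (Ccdc77) and 0 (Hpse2). The gene most like Gtpbp4 by Pearson's r was Phrf1 of chromosome 1 (r = 0.60, n = 130). Spearman's rho of the same pair was 0.46. With the components the slope of Phrf1 was 0.026 ± 0.010 (limma, adjusted p = 0.409). Without the 17 libraries it was 0.0073 (adjusted p = 0.982). Of 26 tested factors of large-subunit assembly 0 were called, with a median slope of 0.0022 against -0.00024 for all genes.

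Ccdc77 had 3 called neighbours of 22 tested, beside 0.0264% of all genes, and all 3 fell. Il17ra, the interleukin-17 receptor 102 kb above, had a slope of -0.11 ± 0.016 (adjusted p = 1.40e-06), Ninj2, a cell adhesion protein 260 kb below, one of -0.18 ± 0.031 (adjusted p = 6.02e-04), and Kdm5a, at the shared start, one of -0.045 ± 0.0096 (adjusted p = 0.0292). Without the 17 libraries Kdm5a was not called (adjusted p = 0.214). None of the 21 tested centriole and ciliary base genes was called, with a median slope of -0.0062 against -0.0012 for all genes.

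Hpse2 had 0 called neighbours of 18 tested within 1 Mb of its deposited position, which is the upper end of a long gene, and 2 called genes in all (0.0132%). Measured from the nearer end of the gene both lay within 1 Mb, at 0.60 and 0.53 Mb below it, and the count was 2 of 35. Zfyve27, which encodes protrudin, a protein of endosome transport in neurites, rose by 0.077 ± 0.010 (adjusted p = 1.30e-07). Golga7b, named after its value was seen, fell by 0.10 ± 0.014 (adjusted p = 2.85e-07). Pearson's r with Hpse2 was 0.39 for Zfyve27 and -0.058 for Golga7b. Neither was called without principal components (limma, adjusted p = 0.0809 and 0.769) or with the clump as a further term. Both were called in the decimal libraries alone, but Golga7b was not in the E21DCD libraries alone (adjusted p = 0.376). The tested genes next to the ends of Hpse2, Cnnm1 above and Hps1 below, had slopes of -0.0069 and 0.0057 and were not called. Of 23 tested heparan sulfate proteoglycans and enzymes 0 were called, and their slopes ran from -0.053 to 0.029.

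Tmco5a had 0 called neighbours of 4 tested, and 1 gene in all was called (0.0066%). That gene was LOC102552786, a long noncoding RNA on chromosome 5, whereas Tmco5a is on chromosome 3. It fell by 0.46 ± 0.042 per unit of Tmco5a (adjusted p = 4.83e-16), with levels from 0.12 to 3.39 and r = -0.59 over the 130 libraries. It was called in the decimal and in the E21DCD libraries alone, with slopes of -0.45 and -0.47. With the clump of each library as a further term it was not called. Spred1, the nearest tested gene at 250 kb, was not called (slope -0.040, adjusted p = 0.999). Of 18 spermatid genes only 1 had a mean level of at least 1.

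Zfp36 had 0 called neighbours of 62 tested, and 36 called genes elsewhere (0.238%), 32 of them on other chromosomes. Ccn1, a secreted matrix protein induced by growth factors, rose by 1.77 ± 0.13 per unit of Zfp36 (adjusted p = 2.76e-22), from 0.11 in its lowest library to 5.80 in its highest with a median of 1.45. Ier2, a nuclear immediate early protein, rose by 0.63 ± 0.065 (adjusted p = 7.90e-13), and Edn1, the vasoconstrictor peptide endothelin-1, by 0.46 ± 0.052 (adjusted p = 2.07e-11). Foxq1, a forkhead factor, was among the 3 genes most like Zfp36 by Pearson's r (0.63, after 0.71 for Ccn1 and 0.66 for Edn1). Med29 and Plekhg2, its nearest tested neighbours at 11.8 and 6.50 kb, had slopes of -0.033 and -0.018 and were not called.

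Of 21 tested immediate early genes 8 rose with Zfp36 and 2 fell, with a median slope of 0.22 against 0.0010 for all genes. Beyond Ccn1 and Ier2 those that rose included Npas4, a neuronal activity factor, at 0.81 ± 0.11, the antiproliferative Btg2 at 0.73 ± 0.094, the phosphatase Dusp1 at 0.43 ± 0.097 and Fos at 0.44 ± 0.11. The orphan nuclear receptor Nr4a3 had a slope of -0.23 ± 0.053 and Fosl2 one of -0.18 ± 0.043. In the decimal libraries alone 28 genes were called with Zfp36 and in the E21DCD libraries alone 3; the slope of Npas4 was 1.29 in the first and 0.42 (adjusted p = 0.860) in the second, and the difference was not called (interaction adjusted p = 0.407). Egr1, Arc and Nr4a1 were not called, with slopes of 0.14, 0.38 and 0.053. Of 19 tested decay factors 2 rose, the paralogs Zfp36l1 at 0.18 ± 0.029 and Zfp36l2 at 0.17 ± 0.031, and the list's median slope was 0.0030. Within clumps the slopes of Ccn1 (1.87) and Ier2 (0.67) were still called.

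**Figure D5:**
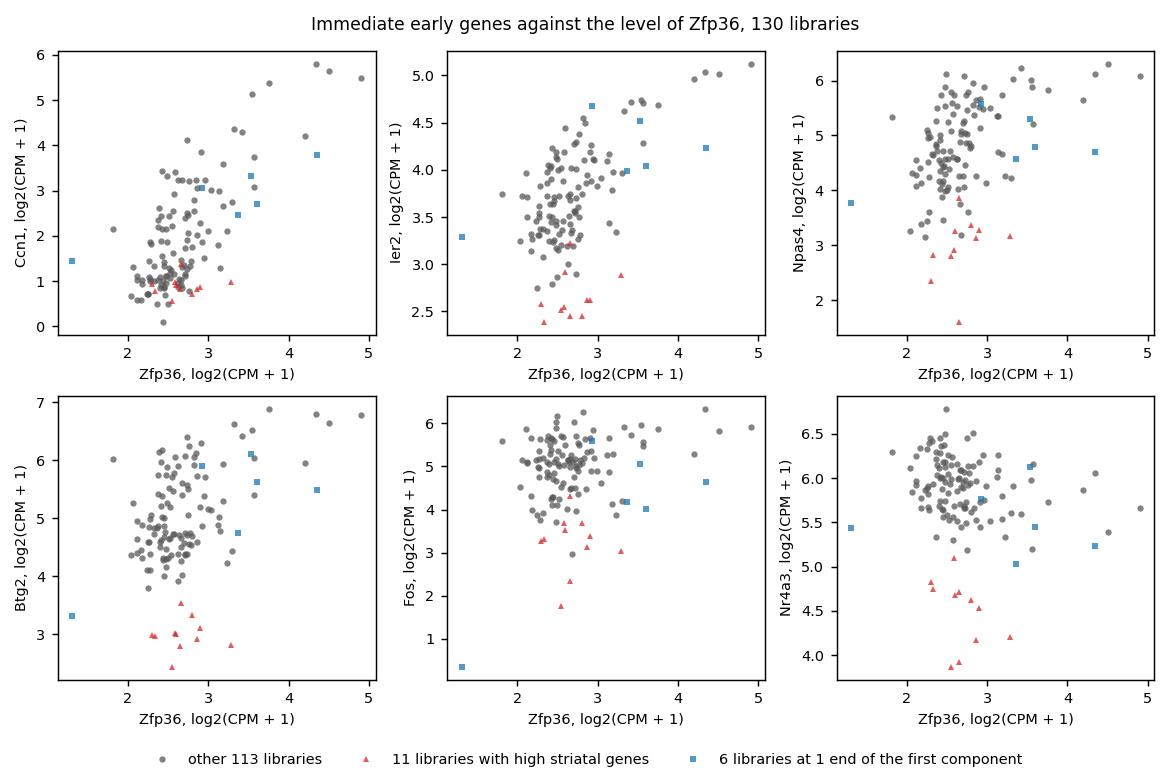
Levels of 6 immediate early genes against the level of Zfp36, log2(CPM + 1) on both axes, 1 point per library, with the same symbols as in the scatter of neighbours. Ccn1, Ier2, Npas4 and Btg2 are high in the libraries with most Zfp36, Nr4a3 is not, and the 11 libraries with high striatal genes are low for Ier2, Npas4, Btg2 and Nr4a3.

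The starts of Zfp36 and of the pair of genes with the lowest p beside it are printed because these 3 rose together. They come from RefSeq (GRCr8): Zfp36 on the minus strand at chr1:92799059-92799358, Ccn1 on the minus strand at chr2:237225640-237225939 and Ier2 on the plus strand at chr19:40399123-40399422. Capitals mark GC boxes (GGGCGG on either strand), the CArG box bound by serum response factor, a TATA box (TATAAA) and a cAMP response element (TGACGTCA).
Zfp36 start: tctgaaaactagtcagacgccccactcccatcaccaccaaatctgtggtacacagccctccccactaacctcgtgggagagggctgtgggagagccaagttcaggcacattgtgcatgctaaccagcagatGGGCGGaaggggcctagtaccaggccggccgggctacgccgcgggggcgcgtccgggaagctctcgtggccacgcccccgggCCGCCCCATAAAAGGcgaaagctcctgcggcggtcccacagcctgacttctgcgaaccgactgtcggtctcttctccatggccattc
Ccn1 start: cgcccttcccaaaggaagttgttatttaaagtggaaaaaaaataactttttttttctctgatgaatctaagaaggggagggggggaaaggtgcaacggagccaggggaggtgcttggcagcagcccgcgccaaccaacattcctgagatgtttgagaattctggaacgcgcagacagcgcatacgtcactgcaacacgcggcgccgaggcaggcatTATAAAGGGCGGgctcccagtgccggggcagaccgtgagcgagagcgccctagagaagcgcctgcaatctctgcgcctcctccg
Ier2 start: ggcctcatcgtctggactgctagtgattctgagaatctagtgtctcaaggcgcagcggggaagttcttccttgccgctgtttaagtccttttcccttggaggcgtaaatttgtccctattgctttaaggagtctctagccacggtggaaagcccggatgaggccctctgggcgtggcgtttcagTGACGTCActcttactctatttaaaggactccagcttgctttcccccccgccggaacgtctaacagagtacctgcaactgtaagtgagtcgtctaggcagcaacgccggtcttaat
Zfp36 held 2 GC boxes and a CArG box that overlaps the second of them by its first base, Ccn1 a TATA box directly followed by a GC box, and Ier2 a cAMP response element. The CArG box occurs in 1.64% of all such windows and the TATA box in 14.2%. AP-1 sites (TGANTCA, 7.33% of windows) were searched on both strands and none of the 3 windows held one.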

How the data were processed

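Per the submitters' processing notes the reads were quantified with kallisto 0.48, which gives estimated counts per transcript; build and annotation are not given in the sources used here. The authors deposited 1 table of log2 values, read here as log2(estimated count + 1) without scaling, since the column sums differ. All 38278 symbols found in RefSeq's GRCr8 table had a deposited position equal to an end of the gene. Values were returned to counts, scaled to 1000000 per library and written as log2(CPM + 1). Column sums were 15122563 to 55950487, and this depth limits the low clumps of Qrfpr, Fam111a, Tmco5a, Hpse2 and Rbp7, at medians of 12, 14.5, 20.0, 24.0 and 24.5 estimated counts.

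The count tests were not used, because the deposited unit is a log scale. Genes with a mean level of at least 1 were tested with limma 3.58.1 (R 4.3.3, moderated test with trend, two-sided, Benjamini-Hochberg over all genes tested, adjusted p under 0.05). Slopes used 10 principal components of the standardised levels. Levels were described by mixtures of 1 to 4 normals of equal variance, with a further clump accepted where BIC fell by at least 10, each clump held at least 3 libraries and neighbouring means were at least 2 SD and 0.5 log2 units apart (Python 3.11.15, numpy 2.4.6). Both steps were run on simulated data. No simulated clump was as sparsely filled as the high clump of Zfp36 or as broad as those of Clxn. The simulation therefore does not cover the clump numbers of these genes. The 11 libraries were those where striatal markers exceeded glutamatergic ones on average, and the 6 those with a score over 0.2 on the first component of the rest.

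The members and the gene lists were chosen with earlier results of these data known. Named genes were those called within 1 Mb (at most 5 per member), the nearest tested gene on either side, the 3 of lowest p on other chromosomes, the 3 of largest Pearson's r, and list genes called or of largest slope; others are marked in the text. Replicates are libraries of separate titles, and 34 labelled samples without a column were not analysed here. A called neighbour of Qrfpr is counted and otherwise not reported here.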

Additional observations from a re-analysis of the deposited data

How the results depend on the processing

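No paired analysis was possible because the replicate numbers follow accession order and pair no samples. Between the title series 1500 genes were called without the 11 libraries and 4488 without the 17, against 4412 with all. Qrfpr was the 1 member called there, and 0 members were called without the 11 libraries, without the 17, with a pseudocount of 0.1, with no filter or with a filter at 3, which Qrfpr does not pass. The number of clumps held under every alternative for Hpse2, Tmco5a and Clxn. For Ccdc77 it was 2, and 3 with a pseudocount of 0.1. For Zfp36 it was 2, and 1 with unequal variances or in the decimal series alone, and 3 without the stepwise rule. For Rbp7 it was 3, and 2 with a pseudocount of 0.1, without scaling or on residuals, and 1 in the decimal series alone. For Qrfpr it was 3, and 4 without the 11 or the 17 libraries or without the stepwise rule, and 2 under the other moved settings (unequal variances, pseudocount 0.1, no scaling, either series alone, residuals). For Fam111a it was 4, and 3 without the 11 or the 17 libraries or in the decimal series alone, and 2 with unequal variances, a pseudocount of 0.1, no scaling, the E21DCD series alone or residuals. For Gtpbp4 it was 1, and 2 without the 17 libraries, in the decimal series alone or on residuals, and 3 with a pseudocount of 0.1, median-of-ratios scaling, no scaling or without the stepwise rule. The 16 called neighbours became 25 without principal components. They became 7 in the decimal series alone, 6 in the E21DCD libraries alone (reassigned included), and 0 with the clump as a term. That last fit was not run for Gtpbp4, which has 1 clump and 2 of the 16. The 25 stand beside far more calls over all 15149 genes without components: 8357 with Gtpbp4, 4301 with Qrfpr, 2453 with Clxn, 857 with Zfp36 and 469 with Rbp7. With Fam111a, Ccdc77 and Hpse2 the calls over all genes fell instead, to 5, 1 and 0. The other settings gave 13 to 20, with 18 for distance from the nearer end of each member. The cause was not tested. Of 55 named slopes that were called, 52 were still called in the same direction without the 11 libraries and 49 without the 17. The number was 32 without principal components, 29 in the decimal series alone and 19 in the E21DCD libraries alone. With the clump as a term it was 10 of 53. Reversed slopes were Gnb4 (-0.056), Kdm5a (0.0087) and Slit3 (-0.051) without principal components, and Aldh3b2 (0.010), Mccc1 (-0.0077), Zfp267 (-0.073), Egfem1 (-0.066), Gnb4 (-0.0030) and LOC120099897 (0.023) within clumps; the cause was not tested. Leaving out the clump rule's steps, the clump as a term and distance from the nearer end were added after the data were seen. Few estimated counts stand behind the low clumps of Qrfpr, Fam111a, Tmco5a, Hpse2 and Rbp7.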
